A study of Mus musculus with 6 samples.

Results

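The mitochondrial DNA maintenance and transcription genes were the 10 nuclear genes Tfam, Tfb1m, Tfb2m, Polrmt, Tefm, Polg, Polg2, Ssbp1, Lonp1 and Lrpprc. They were taken by symbol from a table of 13709 gene rows, and all 10 were present and among the 13594 genes tested. RNA-Seq counts covered CD4+YFP+CD25+ Tregs of 2-week-old C57BL/6 mice, in 3 WT samples (Foxp3Cre) and 3 KO samples (Foxp3Cre Zfp335 fl/fl), with no other treatment. Tregs are the suppressive CD4+ T cells marked by the factor Foxp3, and Zfp335 is a zinc finger transcription factor. Both genotypes carried the Foxp3Cre allele, in which Cre and YFP are made from the Foxp3 locus, so Cre acts in cells that express Foxp3 or once did. The labels name both lymph nodes and spleen as the source. Whether a sample held cells of 1 mouse or of several was not given in the sources used here, so the p-values measure the spread between these samples only.

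Mitochondria keep a small circular genome of their own, and nearly all of the proteins that copy and read it are made from nuclear genes and imported. The RNA polymerase Polrmt starts transcription with Tfam, which bends and packs the DNA, and Tfb2m, which opens the promoter, and Tefm then keeps the polymerase moving. The DNA polymerase formed by Polg and Polg2 copies the genome behind the helicase Twnk, with the single strands covered by Ssbp1. Tfb1m methylates the small ribosomal RNA of mitochondria, the protease Lonp1 degrades matrix proteins including Tfam, and Lrpprc, with its partner Slirp, keeps mitochondrial mRNAs stable. In T cells, activation and growth are known to bring mitochondrial biogenesis with them.

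Promoter sequences are shown first, since nuclear genes of this pathway are known targets of ETS family factors such as Gabpa, which bind CCGGAAG. The 2 members that differed between genotypes, in opposite directions, both hold this motif. So do Ssbp1, Tefm, Polrmt and Polg2, which were not found to differ. Whether the motif bears on the differences was not tested. Windows from 250 bases before to 50 bases after a transcription start came from RefSeq (GRCm38.p6) for all 10 members, and both strands were searched. CCGGAAG was present in 6 of the 10 windows, against 8.86% of 32851 promoter windows in all, which were not matched for expression or GC content. The windows with it are those of Tfam, Polg, Ssbp1, Tefm, Polrmt and Polg2. In each of them the motif began 9 to 47 bases before the start used for that window. That start is not always the outer end of the gene. For Tfam, Polg, Ssbp1 and Tefm the whole gene, by the positions printed further below, begins upstream of the motif, which thus lies inside it. The stretches below run 5′ to 3′ on the strand of the gene, with the motif in capitals, as CTTCCGG where it lies on the other strand.
Tfam, chr10:71238070-71238106 (minus strand): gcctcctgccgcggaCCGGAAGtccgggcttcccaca
Polg, chr7:79466290-79466326 (minus strand): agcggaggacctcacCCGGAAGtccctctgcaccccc
Ssbp1, chr6:40471406-40471442 (plus strand): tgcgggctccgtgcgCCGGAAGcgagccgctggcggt
Tefm, chr11:80142141-80142177 (minus strand): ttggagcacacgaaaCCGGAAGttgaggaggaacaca
Polrmt, chr10:79746603-79746639 (minus strand): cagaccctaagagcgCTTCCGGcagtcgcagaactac
Polg2, chr11:106779545-106779581 (minus strand): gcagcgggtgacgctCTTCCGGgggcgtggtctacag

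The longer form CCGGAAGT was present in 3 of the 10 windows (Tfam, Polg and Tefm), against 3.89% of all windows. The NRF1 core, GCGCA followed by its reverse complement TGCGC, was in none of the 10 windows and in 0.971% of all. The form GCGCA, any base, GCGC was in that of Polrmt, in a pair of overlapping matches, and in 4.6% of all. The E-box CACGTG and the YY1 motif ATGGCGGC were both in that of Lonp1, against 7.15% and 2.24% of all windows, and the CRE TGACGTCA was in none, against 1.79%. A match describes letters in a window and does not show binding. The full windows of Tfam, which was higher in KO samples, and Polg, which was lower, are given next for comparison, with the ETS motif CCGGAAGT in capitals. The Polg window also holds a tRNA gene, n-TRtcg5.
Tfam, chr10:71237995-71238294 (minus strand): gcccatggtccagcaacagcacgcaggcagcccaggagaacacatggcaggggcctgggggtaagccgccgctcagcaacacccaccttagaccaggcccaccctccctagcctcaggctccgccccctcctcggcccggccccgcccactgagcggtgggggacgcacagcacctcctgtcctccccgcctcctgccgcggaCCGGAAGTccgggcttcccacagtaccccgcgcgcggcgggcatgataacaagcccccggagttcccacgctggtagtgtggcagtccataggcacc
Polg, chr7:79466224-79466523 (minus strand): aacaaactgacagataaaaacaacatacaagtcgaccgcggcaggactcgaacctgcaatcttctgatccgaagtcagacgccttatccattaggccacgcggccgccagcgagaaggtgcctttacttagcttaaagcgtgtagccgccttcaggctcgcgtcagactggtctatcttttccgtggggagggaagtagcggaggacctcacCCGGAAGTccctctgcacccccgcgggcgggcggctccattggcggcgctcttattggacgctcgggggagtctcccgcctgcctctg

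Total counts per sample ranged from 32032631 to 40728419, at which the floor of 3 counts was 0.0747 to 0.0913 CPM (a count scaled by the TMM-corrected total of its library). Levels at or under this floor could not be told from 0, and it covers counting error only. All members lay well above it, with 133 to 6958 counts per sample. Zfp335 itself was at 94.3 to 103 CPM in WT and 37.0 to 40.2 CPM in KO samples, and part of its transcript sequence is shared with genes on the opposite strand. All 6 Treg markers examined were present, with Foxp3 at 642 to 1190 CPM in WT and 460 to 472 CPM in KO samples. Foxp3 and Ikzf2 (log2 fold change -1.11) were called lower, Cd3e was lower and Cd4 higher at an adjusted p under 0.05, and Il2ra and Ctla4 did not pass. WT replicate 3 stood apart. The median squared difference of its counts from the other WT samples, scaled for depth, was 25.8 to 26.3 times that of sampling noise. It was 10.1 times between WT replicates 1 and 2 and 5.27 to 6.07 times within KO samples. The summed level of 12 proliferation markers was 1189 to 2021 CPM in WT and 4706 to 4965 CPM in KO samples, with WT replicate 3 the lowest, and all 12 were called higher. All 5 myeloid markers were called higher too, from a sum of 8.41 to 19.4 CPM to 41.2 to 47.8 CPM, with S100a8 and S100a9 at 0 counts in every WT sample. CD8 T cell markers summed to 9.32 to 13.2 CPM in WT and 12 to 12.7 CPM in KO samples, B cell markers to 3.66 to 7.77 and 5.12 to 6.80 CPM, NK cell markers to 1.71 to 2.58 and 3.39 to 5.05 CPM, and erythroid markers to 15.5 to 63.2 and 27.3 to 29.97 CPM. Among these, Cd8a (log2 fold change 0.997, adjusted p = 0.0665) and the NK cell marker Klrb1c (1.08, adjusted p = 0.0556) were called higher, while Cd8b1, which made up most of the CD8 sum, was not called. The part of these cell types and of proliferation in the results that follow was not tested.

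Zfp335 deficiency came with a lower Polg level and a slightly higher Tfam level, while the other 8 members did not pass the tests. At the cutoffs of the study (fold change above 1.5, p under 0.05 and adjusted p under 0.1, here in edgeR's quasi-likelihood test with Benjamini-Hochberg adjustment) 0 of the 10 members were called, against 24.4% of all genes tested. DESeq2 also called 0. In edgeR, 4 members had an unadjusted p under 0.05, against 47.6% of all genes. With an adjusted p under 0.05 and no fold cutoff, 1 member was higher and 1 was lower, against 38.6% of all genes in either direction. WT and KO values did not overlap for 3 of the 10 members, against 53.8% of all genes. The median log2 fold change (KO over WT, used throughout) was -0.08 over the members and -0.04 over all genes tested, with members between -0.50 and 0.29.

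**Figure D1:**
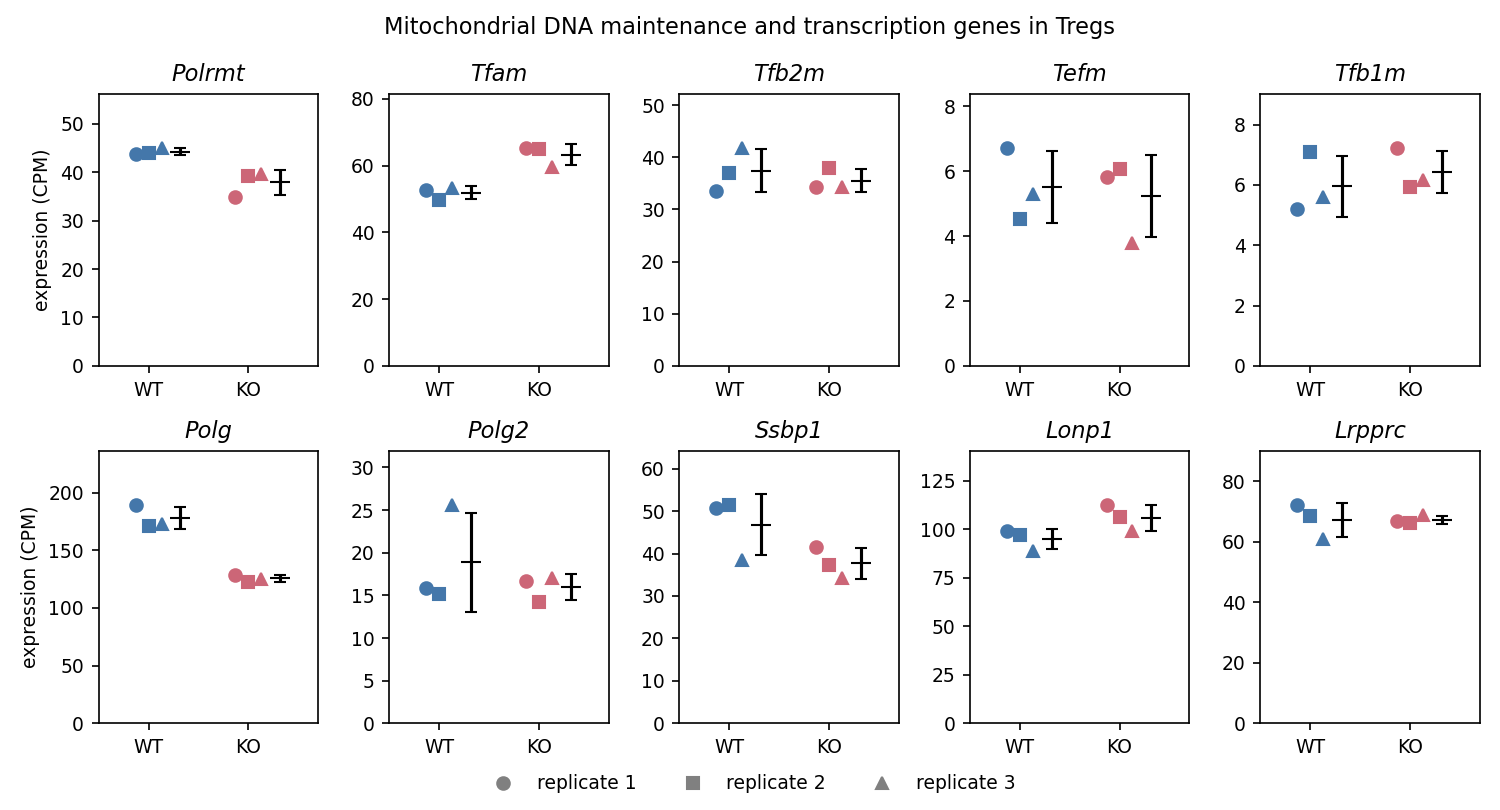
Expression in CPM (vertical axes, each from 0) of the 10 members in 3 WT (blue) and 3 KO (red) samples, with mean and SD in black and marker shapes for replicate numbers. Polg lay at 171 to 189 CPM in WT and 123 to 129 CPM in KO samples, Tfam and Polrmt were the other members without overlap, and Polg2 and Ssbp1 had WT replicate 3 away from the other WT samples.

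Among the transcription genes, Tfam rose by a small amount. Tfam, the packaging protein and transcription activator of mitochondrial DNA (chr10:71225468-71238328, minus strand), was at 52.6, 49.7 and 53.4 CPM in WT replicates 1 to 3. In KO replicates 1 to 3 it was at 65.3, 65.0 and 59.7 CPM. All KO values lay above all WT values, and the KO mean was 122% of the WT mean. The log2 fold change was 0.29 (SE 0.07, 95% interval 0.12 to 0.46, edgeR adjusted p = 0.0172). The direction held in every alternative, but the adjusted p rose to 0.0504 without WT replicate 2, to 0.0744 without KO replicate 1 and to 0.0763 without KO replicate 2. With offsets for GC content and transcript length the log2 fold change was 0.16 (adjusted p = 0.0948).

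Polrmt, the polymerase itself (chr10:79736125-79746604, minus strand), was at 43.8, 43.8 and 44.97 CPM in WT and 34.9, 39.1 and 39.7 CPM in KO samples. The groups did not overlap, and the WT values were the tightest of any member, with a coefficient of variation of 1.49%. The log2 fold change was -0.22 (SE 0.08, 95% interval -0.41 to -0.04), which did not pass with an adjusted p of 0.0615 in edgeR. It passed when libraries were scaled by their totals alone (adjusted p = 0.0377) and without WT replicate 3 (adjusted p = 0.0391), at log2 fold changes of -0.26 and -0.21.

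Tfb2m, the promoter-opening factor (chr1:179528052-179546305, minus strand), was at 33.5, 37.1 and 41.8 CPM in WT and 34.3, 38.0 and 34.2 CPM in KO samples. These groups overlapped, and the log2 fold change was -0.08 with a 95% interval of -0.32 to 0.16. Its value is uncertain, since the unprocessed pseudogene Gm1818 on chromosome 12 shares 29.6% of the 75-base stretches of Tfb2m transcripts. Tefm, the elongation factor (chr11:80136674-80142871, minus strand), was at 6.71, 4.54 and 5.29 CPM in WT and 5.83, 6.07 and 3.77 CPM in KO samples. The groups overlapped, and the 95% interval of its log2 fold change, -0.66 to 0.51, was the widest of the members. Tfb1m, the ribosomal RNA methyltransferase (chr17:3519250-3557796, minus strand), was at 5.19, 7.09 and 5.59 CPM in WT and 7.23, 5.92 and 6.16 CPM in KO samples. Its 95% interval of -0.33 to 0.55 also spanned changes in either direction, and its last 148 bases overlap Tiam2 on the opposite strand. With 133 to 264 counts per sample, Tefm and Tfb1m were the least deeply counted members.

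Among the replication genes, Polg fell. Polg, the catalytic subunit of the mitochondrial DNA polymerase (chr7:79446231-79467911, minus strand), was at 189, 171 and 173 CPM in WT replicates 1 to 3. In KO replicates 1 to 3 it was at 129, 123 and 125 CPM. Every KO value was below every WT value by more than the spread within either genotype, and the KO mean was 70.6% of the WT mean. The log2 fold change was -0.50 (SE 0.07, 95% interval -0.66 to -0.35, edgeR adjusted p = 0.00101), just short of the fold cutoff, and it ranged from -0.54 to -0.46 over 14 alternatives with an adjusted p of at most 0.00959. The end of Polg overlaps Fanci on the opposite strand by 4036 bases, and 5.48% of its 75-base stretches are shared with Fanci. Whether the counting used strand was not given in the sources used here. Fanci, a DNA crosslink repair gene, was at 23.1, 22.7 and 10.9 CPM in WT and 37.9, 40.0 and 35.3 CPM in KO samples, which is the opposite direction to Polg (log2 fold change 0.998, adjusted p = 0.0174).

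Polg2, the accessory subunit that holds the polymerase on DNA (chr11:106768204-106779537, minus strand), was at 15.8, 15.2 and 25.6 CPM in WT and 16.7, 14.2 and 17.1 CPM in KO samples. WT replicate 3 was above all other samples, and the remaining WT values lay within the KO range. The log2 fold change was -0.24 (95% interval -0.72 to 0.25), and without WT replicate 3 it was 0.04. The last 591 bases of Polg2 overlap Milr1 on the opposite strand, so reads of these genes may be exchanged. Ssbp1, the single-stranded DNA binding protein (chr6:40471414-40481823, plus strand), was at 50.6, 51.4 and 38.5 CPM in WT and 41.6, 37.3 and 34.2 CPM in KO samples. WT replicate 3 lay inside the KO range and the other WT samples above it. The log2 fold change of -0.31 (95% interval -0.62 to -0.01) had an adjusted p of 0.0971 in edgeR with all samples and 0.000558 without WT replicate 3, where it was -0.44. With all samples kept it passed only under GC and length offsets with the replicate block (log2 fold change -0.37, adjusted p = 0.0364).

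Lonp1 and Lrpprc did not pass the tests. Lonp1, the matrix protease (chr17:56614297-56626903, minus strand), was at 99.1, 96.8 and 89.0 CPM in WT and 112, 106 and 98.9 CPM in KO samples. Only the lowest KO and highest WT values crossed, and the log2 fold change was 0.16 (95% interval -0.02 to 0.33, edgeR adjusted p = 0.146). Lrpprc, the mRNA stability factor (chr17:84705247-84790786, minus strand), was at 72.1, 68.5 and 61.1 CPM in WT and 66.8, 66.3 and 68.8 CPM in KO samples. The KO values lay within the WT range, and the 95% interval of the log2 fold change was -0.18 to 0.19. Its partner Slirp was at 10.2, 16.2 and 11.5 CPM in WT and 11.8, 13.1 and 12.99 CPM in KO samples, also within the WT range, but 87.4% of the 75-base stretches of its annotated transcripts are shared with Snw1 on the opposite strand, so its level is uncertain.

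**Figure D2:**
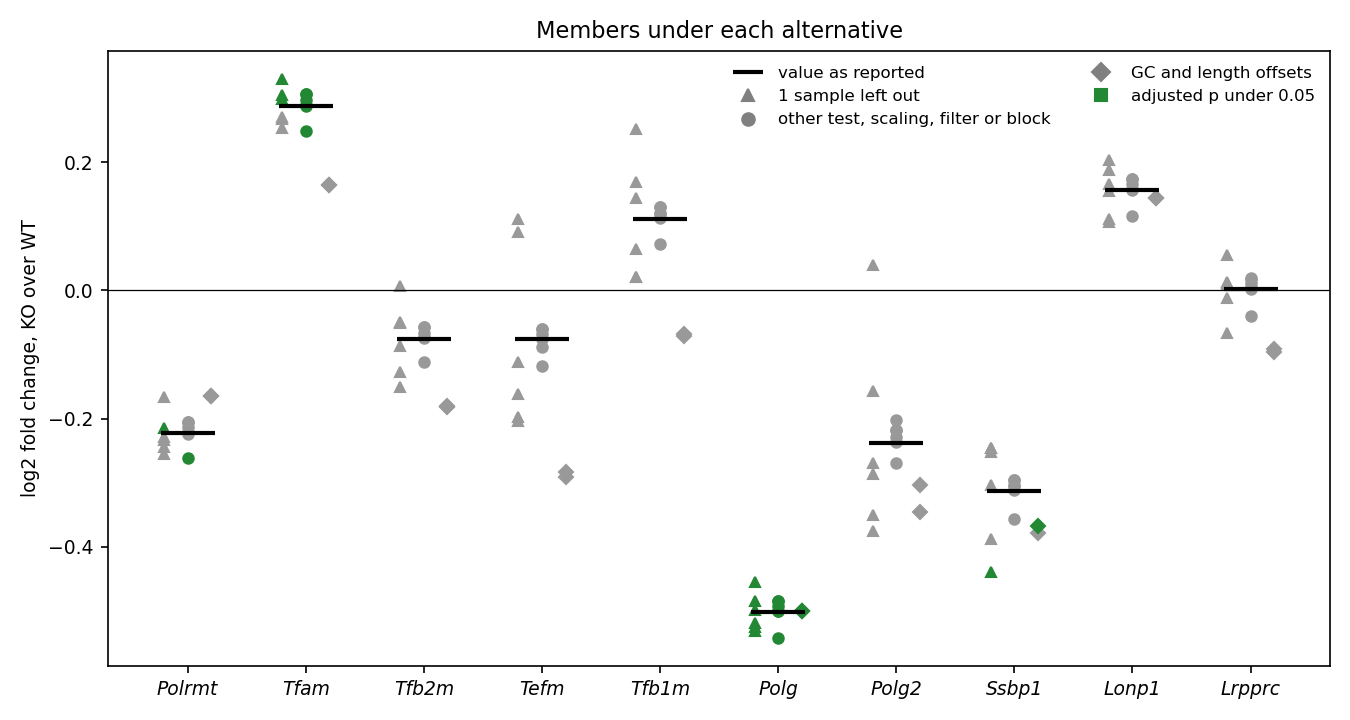
Log2 fold change (KO over WT, vertical axis) of each member as reported (black bar) and under 14 alternatives, namely 1 sample left out (triangles), another test, scaling, filter or block (circles) and GC and length offsets (diamonds), with green where the adjusted p was under 0.05. Polg was green throughout, Tfam was above 0 throughout with a lowest value of 0.16, and Tfb1m, Tfb2m, Tefm, Polg2 and Lrpprc had values on both sides of 0.

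Levels per transcript length, as CPM per kilobase of the longest coding transcript, gave an order of the members in WT samples. Lonp1 was highest at 32.2 ± 1.80 (SD, n = 3), followed by Polg at 22.7 ± 1.24. Lrpprc at 15.3 ± 1.28 and Tfb2m at 15.3 ± 1.698 did not differ beyond their spread, and neither did Polg2 at 12.5 ± 3.86 and Polrmt at 11.8 ± 0.18. Tfb1m at 4.25 ± 0.72 and Tefm at 4.21 ± 0.84 CPM per kilobase were the lowest. Tfam and Ssbp1 could not be placed, since their annotated coding transcripts run from 779 to 4167 and from 933 to 4398 bases, which puts their WT means anywhere from 12.5 to 66.6 and from 10.6 to 50.2 CPM per kilobase.

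Ratios of partner genes were compared within samples. The Polg to Polg2 ratio per length was 2.30, 2.17 and 1.30 in WT and 1.48, 1.66 and 1.41 in KO samples (exact permutation test, two-sided p = 0.4, n = 3 per genotype). The Polg to Twnk ratio per length was 2.84, 2.80 and 3.17 in WT and 3.41, 3.14 and 3.06 in KO samples (exact permutation p = 0.3). The ratio of Tfam to Polg in CPM, a within-sample contrast of the 2 members that moved, was 0.278, 0.290 and 0.308 in WT and 0.508, 0.529 and 0.476 in KO samples. These ranges did not overlap, with an exact permutation p of 0.1, the smallest that 3 against 3 samples allow. This ratio was chosen with the direction of both genes known. Since neither gene overlapped between genotypes and they moved in opposite directions, its p was fixed in advance and adds no support. The ratios of Tfb2m to Tfb1m (3.66 ± 0.65 in WT, 3.19 ± 0.48 in KO, exact permutation p = 0.4) and of Lonp1 to Lrpprc (2.11 ± 0.06 and 2.34 ± 0.18, exact permutation p = 0.2) per length also overlapped. None of the 5 ratio tests had a p under 0.05, which none could reach with 3 against 3 samples. Their p-values were not adjusted.

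The mRNAs that this machinery makes from the mitochondrial genome were also counted, and all 13 were estimated lower in KO samples. Their share of all counts was 2.60%, 3.42% and 3.06% in WT and 2.04%, 2.38% and 2.38% in KO samples. The KO samples were all below the WT samples, with a difference in means of -0.761 percentage points and an exact two-sided permutation p of 0.1, the smallest this design allows. A lower level of these mRNAs per cell and fewer cells rich in them cannot be told apart in bulk samples. The median log2 fold change was -0.41, from -0.61 for ND3 to -0.13 for ND1, against -0.04 over all genes.

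By gene, 1 of the 13 mRNAs was called lower at the study cutoffs, against 12.5% of all genes, and 4 others were lower at an adjusted p under 0.05, against 19.4% of all genes. The called gene, ATP8, a subunit of ATP synthase, differed by -0.59 on the log2 scale (SE 0.20, edgeR adjusted p = 0.050), at 218, 406 and 349 CPM in WT and 208, 229 and 209 CPM in KO samples. WT replicate 1 lay within the KO range for this gene, and ATP8 overlaps ATP6 in the mitochondrial genome, so reads of the pair can be exchanged. Its log2 fold change was -0.28 with GC and length offsets (adjusted p = 0.201) and -0.40 without WT replicate 2 (adjusted p = 0.144), and the fold cutoff was also missed in DESeq2 (-0.57). COX3, a cytochrome c oxidase subunit, was at 2596, 3322 and 3140 CPM in WT and 2130, 2107 and 2187 CPM in KO samples, with no overlap (log2 fold change -0.50, SE 0.10, adjusted p = 0.00526). CYTB, the cytochrome b of complex III, had a log2 fold change of -0.40 (adjusted p = 0.00764), COX1 of -0.32 (adjusted p = 0.0183) and ND4L, a complex I subunit, of -0.41 (adjusted p = 0.0284), and their groups did not overlap either. COX3 and CYTB stayed under an adjusted p of 0.05 in all 14 alternatives, whereas COX1 and ND4L lost it without WT replicate 2 or any 1 of the KO samples (0.0618 to 0.0805 and 0.0551 to 0.106). WT and KO values did not overlap for 6 of the 13, against 53.8% of all genes.

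Replicates of the same genotype also differed in these mRNAs. WT replicate 1 was the lowest WT sample for 12 of the 13, and KO replicate 1 the lowest KO sample for 11 of the 13. ND3, with the widest swing among the mRNAs encoded on the same strand, was at 136, 306 and 260 CPM in WT and 87.7, 193 and 179 CPM in KO samples (log2 fold change -0.61, adjusted p = 0.216). ND6, the only mRNA encoded on the other strand, was at 9.97, 2.47 and 2.52 CPM in WT and 3.39, 4.63 and 4.31 CPM in KO samples, so that WT replicate 1 was the highest of all 6 samples and the other WT samples the lowest. Its end overlaps that of ND5. With WT replicate 1 left out, ND6 had a log2 fold change of 0.72, above 0 where the other 12 stayed below it. Of the 13, 8 then had an adjusted p under 0.05, against 4612 of the 13656 genes tested. Across the alternatives 2 to 11 of the 13 were lower at an adjusted p under 0.05 and none was higher, while 3580 to 7061 of all genes passed. Ribosomal RNAs of mitochondria were not analysed here.

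**Figure D3:**
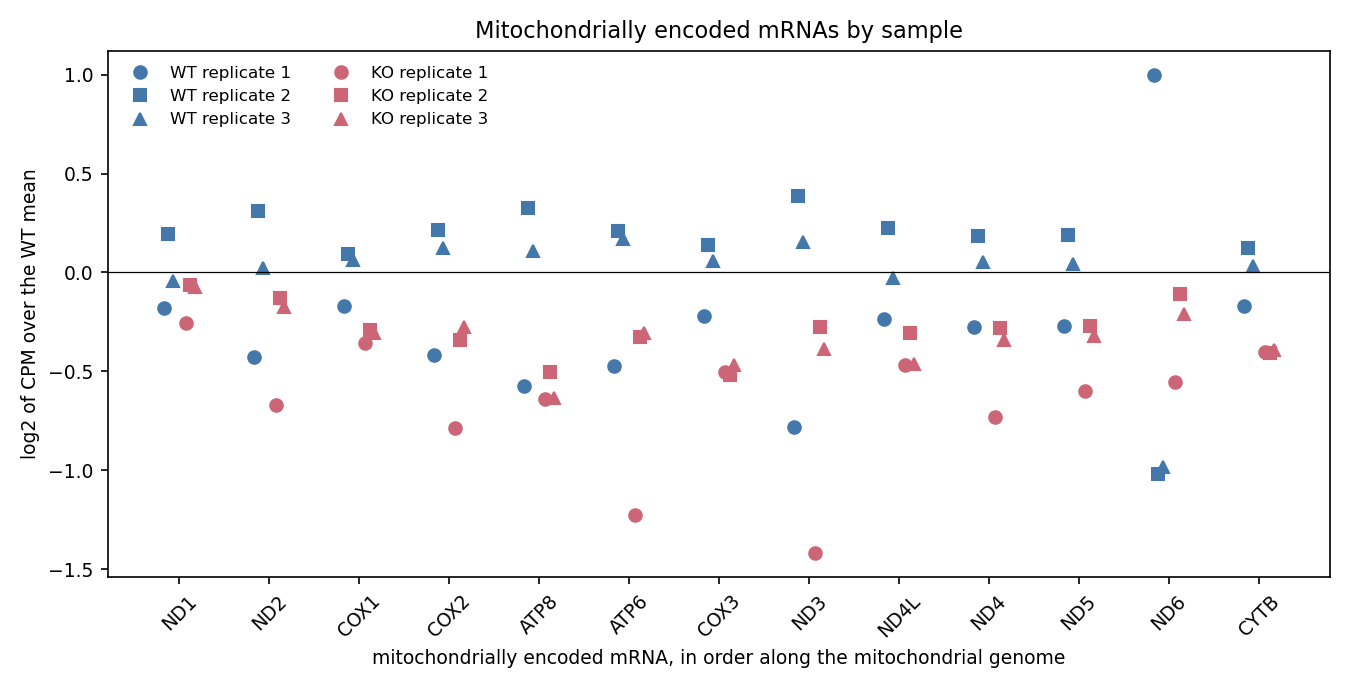
Log2 of CPM over the WT mean (vertical axis) for the 13 mitochondrially encoded mRNAs in their order on the mitochondrial genome, with 3 WT (blue) and 3 KO (red) samples and marker shapes for replicate numbers. WT replicate 1 (blue circles) lay below the other WT samples for 12 mRNAs and above them for ND6, and KO replicate 1 (red circles) was the lowest KO sample for 11.

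Other genes of the pathway were listed in 6 groups by role, and 56 of the 57 listed genes were tested. Of these, 1 was called higher and 3 were called lower at the study cutoffs, against 24.4% of all genes. With an adjusted p under 0.05 and no fold cutoff, 3 were higher and 14 lower, against 19.2% and 19.4% of all genes. The median log2 fold change was -0.07, beside -0.04 for all genes. Between 1 and 7 genes were higher and between 9 and 20 lower at this adjusted p across the alternatives, while 3580 to 7061 of all genes passed.

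In mitochondrial DNA replication and repair, 2 of 9 genes rose and 2 fell at an adjusted p under 0.05, shares near those of all genes (19.2% and 19.4%). Twnk, the helicase that unwinds DNA ahead of Polg, was at 29.6, 27.2 and 24.3 CPM in WT and 16.8, 17.4 and 18.2 CPM in KO samples, with no overlap (log2 fold change -0.63, SE 0.10, edgeR adjusted p = 0.00264). Twnk overlaps the neighboring gene Mrpl43 by 780 bases, and 11.1% of its 75-base stretches are shared with it, so its count is uncertain. Without WT replicate 1 its log2 fold change of -0.56 fell short of the fold cutoff. Dna2, a nuclease and helicase that works in both the nucleus and mitochondria, was at 17.8, 19.6 and 11.8 CPM in WT and 56.9, 57.1 and 59.3 CPM in KO samples (log2 fold change 1.82, SE 0.18, adjusted p = 0.000268). As with the proliferation markers, the lowest value was that of WT replicate 3. Mgme1, a nuclease that trims replication ends, rose by 0.58 on the log2 scale (adjusted p = 0.0145), and Top1mt, the mitochondrial topoisomerase, fell by 0.56 (adjusted p = 0.0288). Mgme1 lost the adjusted p of 0.05 without KO replicate 1 (0.0667) or KO replicate 3 (0.0521) and with GC and length offsets plus the replicate block (0.0548), and Top1mt lost it when any sample but WT replicate 3 was left out (0.0707 to 0.111).

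Of the 7 genes of mitochondrial nucleotide supply, 4 fell at an adjusted p under 0.05 and none rose, against 19.4% and 19.2% of all genes, with a median log2 fold change of -0.47. Dguok, the deoxyguanosine kinase that salvages purine nucleosides in mitochondria, was at 33.3, 34.8 and 29.9 CPM in WT and 19.0, 20.3 and 20.9 CPM in KO samples (log2 fold change -0.70, SE 0.10, edgeR adjusted p = 0.00111). Tk2, the thymidine kinase of mitochondria, was at -0.51 on the log2 scale (SE 0.14, adjusted p = 0.0246) and did not reach the fold cutoff. For Dguok and Tk2 every KO value was below every WT value. The adjusted p of Tk2 was over 0.05 without WT replicate 1 or any 1 of the KO samples (0.0642 to 0.0927), and it was called at the study cutoffs without WT replicate 2.

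In the remaining groups no gene was called at the study cutoffs. Of 21 genes of mitochondrial RNA processing and decay, 4 fell at an adjusted p under 0.05, a share near the 19.4% of all genes that fell. The largest fall was that of Hsd17b10, a subunit of mitochondrial RNase P, from 41.3, 45.9 and 39.3 CPM in WT to 28.8, 26.3 and 30.5 CPM in KO samples (log2 fold change -0.56, edgeR adjusted p = 0.00316). Of 6 nucleoid and matrix protease genes, 2 fell, against 19.4% of all genes, and the larger fall was that of Atad3a, a membrane ATPase found with nucleoids (log2 fold change -0.52, adjusted p = 0.00129), of which 3.05% of the 75-base stretches are shared with a pseudogene. None of 5 transcription termination genes passed in edgeR, against 38.6% of all genes in either direction. At an unadjusted p under 0.05 there were 2 of these 5, against 47.6% of all genes, and their median was -0.25. Of the 8 regulators of mitochondrial biogenesis tested, 1 rose and 2 fell, against 19.2% and 19.4% of all genes. Gabpa, the ETS factor whose motif is printed above, was at 73.8, 91.0 and 90.8 CPM in WT and 107, 113 and 114 CPM in KO samples (log2 fold change 0.38, SE 0.09, adjusted p = 0.0141), and 967 bases of it overlap Atp5j. Its adjusted p was 0.0557 without KO replicate 2 and 0.0585 without KO replicate 3. Esrra, an orphan nuclear receptor, had a log2 fold change of -0.38 (adjusted p = 0.0081). Nrf1, the other classical activator of these genes, had a log2 fold change of 0.21 with an adjusted p of 0.0593, and Ppargc1a was not analysed here.

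**Figure D4:**
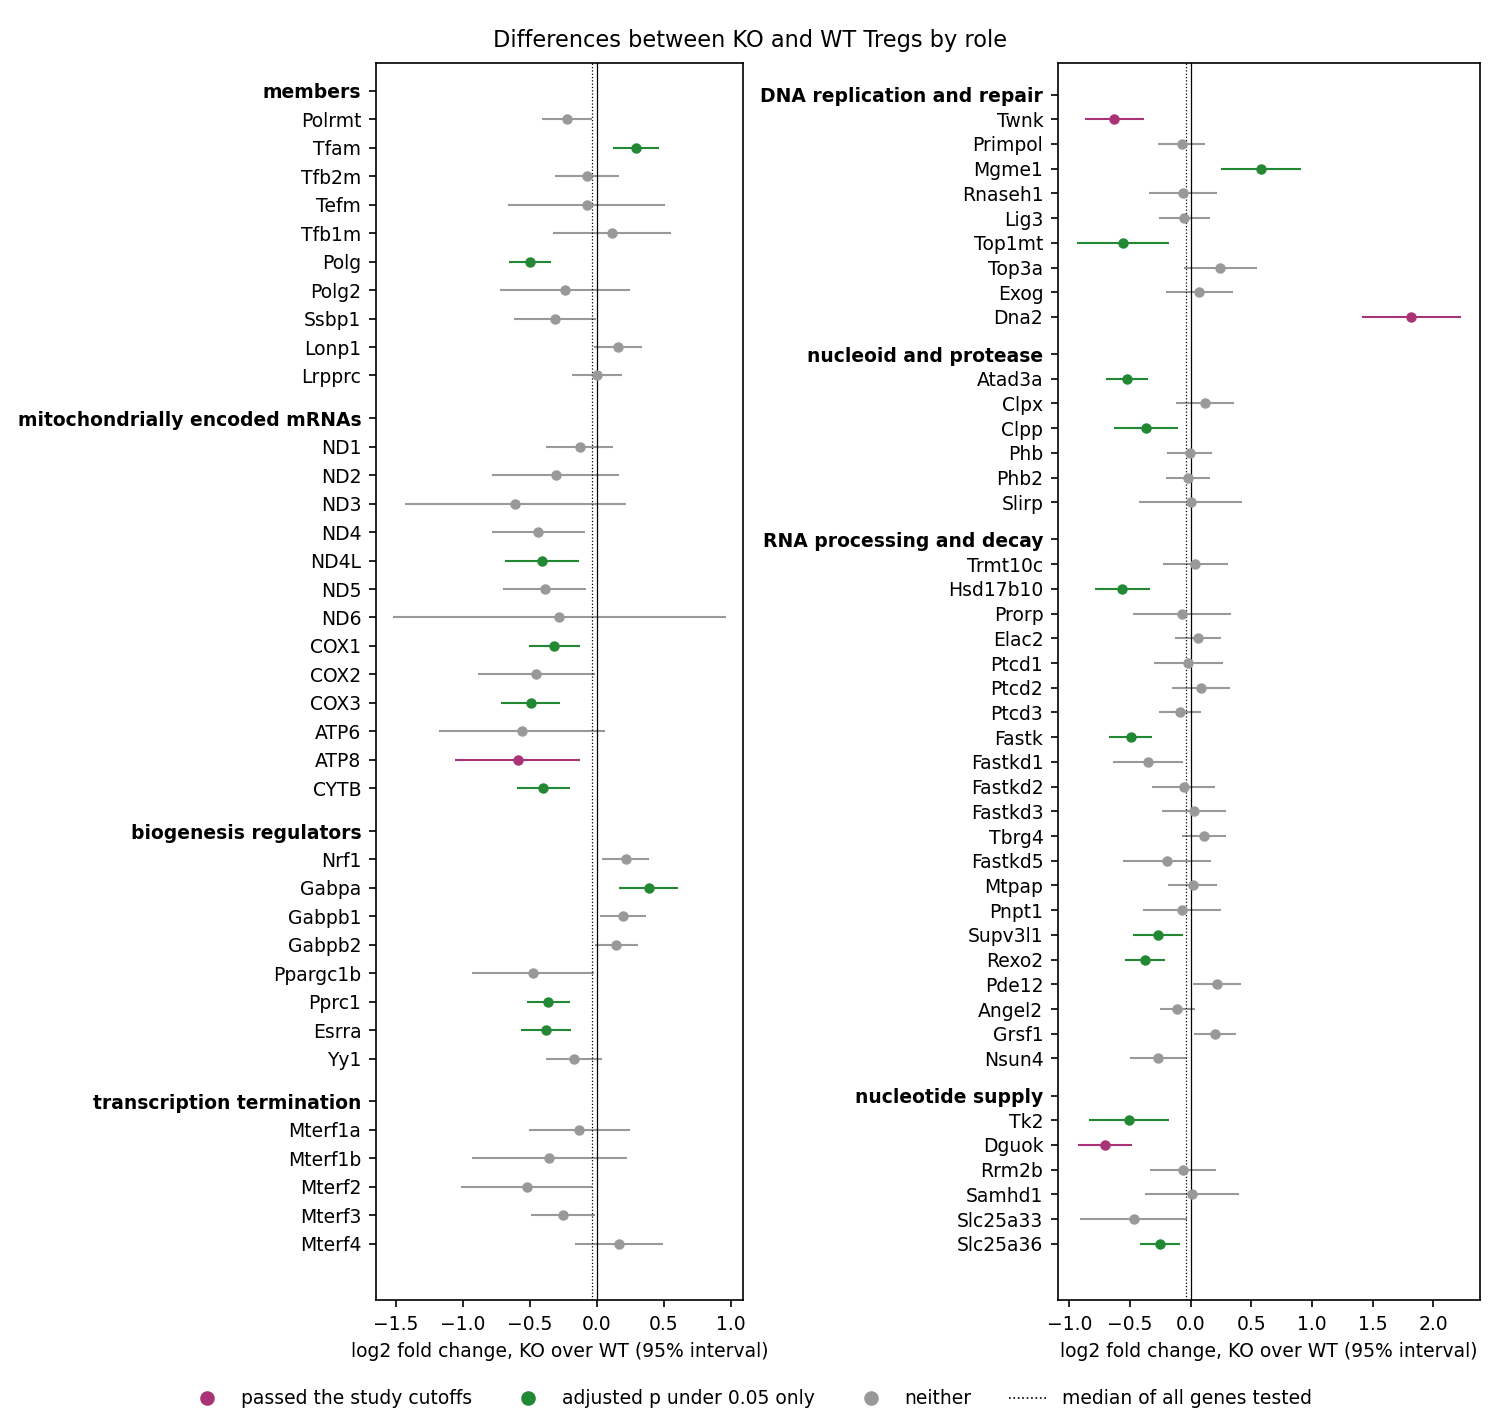
Log2 fold change (KO over WT, horizontal axes, which differ between the panels) with 95% intervals for the members, the 13 mitochondrially encoded mRNAs and the other pathway genes that are reported, with color for the test passed and a dotted line at the median of all genes, -0.04. Polg and Tfam were the members with an adjusted p under 0.05, all 13 mitochondrial mRNAs lay left of 0, and Dna2, at 1.82, lay farthest right.

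Genes for mitochondrial ribosomal proteins, which translate these mRNAs, had a median on the other side of 0. The 79 such genes were taken by symbol and include the pseudogene Mrpl23-ps1, which did not pass. At the study cutoffs 1 of the 79 was called higher and 1 lower, against 11.9% and 12.5% of all genes. At an adjusted p under 0.05, 7 were higher and 6 lower, against 19.2% and 19.4% of all genes, and their median log2 fold change was 0.05. Their summed level was 2217 to 2505 CPM in WT and 2377 to 2452 CPM in KO samples, which lay within the WT range. The summed level of the 10 members was 538 to 568 CPM in WT and 488 to 514 CPM in KO samples, without overlap. Polg alone had a mean difference of -52.2 CPM between genotypes, beside -49.9 CPM for the sum of all 10.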

How the data were processed

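The authors sorted CD4+YFP+CD25+ Tregs, prepared TruSeq RNA libraries, filtered reads with SOAPnuke, used HISAT2 to align them to mm10 with at most 1 alignment reported for a read, and quantified genes with StringTie. The deposited values are whole-number counts per gene without normalization. How they were made whole, the strand setting and the annotation are not given in the sources used here. The smallest row sum was 60, so rows with low counts are absent. Overlapping genes and near-identical copies can exchange reads.

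Members and lists were chosen with earlier results of these data known. Counts were analyzed with edgeR 4.0.16 in R 4.3.3 (filterByExpr with a minimum count of 10, TMM scaling with factors of 0.98 to 1.037, quasi-likelihood F-test, Benjamini-Hochberg adjustment over 13594 genes). Intervals use the t distribution of that fit. Alternatives were DESeq2 1.42.0, other scalings, filters and thresholds, GC and length offsets, a replicate block, and leaving out each sample. Simulated counts for KO against WT held 13594 genes, 200 of them changed. Of the changed genes 87.5% were called, and 8.85% of calls were unchanged genes. The calls numbered 192 there and 3318 in the data. How often differences as small as those of the members are called was not tested. Named genes were Zfp335, the members, called list genes, otherwise the largest rise and fall with an adjusted p under 0.05 in each list, and Slirp, Twnk, Nrf1 and Gabpa. Some list genes that the counts include are not reported here. ND1, ND3, ND4L, ND6, COX1, CYTB and Fanci were chosen after their values were seen. Mitochondrial mRNAs are listed in the table as ND1, COX1 and the like. Positions and promoters came from RefSeq (GRCm38.p6, the assembly of mm10), and transcripts from GENCODE M21.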

Additional observations from a re-analysis of the deposited data

How the results depend on the processing

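No member was called at the study cutoffs under any of 15 alternatives. The count of members with an adjusted p under 0.05 was 1 with GC and length offsets and 1 to 4 when a sample was left out. All genes under it numbered 5551 with these offsets and 3580 to 7061 when a sample was left out. The 4 members (Tfam, Polg, Polrmt and Ssbp1) passed without WT replicate 3, where 7061 of the 13663 genes tested passed. A test against a fold change of 1.5 itself (glmTreat) called 1686 genes in all, against 3318. Pathway genes called numbered 7 with GC and length offsets, with or without the replicate block, and 2 to 7 when a sample was left out. All genes called numbered 3424 with these offsets, 3280 with offsets and block, and 2867 to 3667 when a sample was left out. The median of the members was -0.17 with these offsets, with or without the block, and those of the members and the mitochondrial mRNAs ranged from -0.15 to -0.03 and from -0.52 to -0.31 when a sample was left out. The difference in the share of mitochondrial mRNAs then ranged from -0.977 to -0.563 percentage points.

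The sign turned for 7 genes, none of which had an adjusted p under 0.05 in either setting. Tfb1m was at -0.071 with offsets and -0.069 with offsets and block. Lrpprc was at -0.0401 with library totals, and at -0.096 and -0.092 with offsets without and with the block. Slirp was at -0.0386 with library totals, and at -0.125 and -0.101 with these offsets. ND6 was at 0.053 with the block and 0.0201 with offsets and block. When a sample was left out, Tfb2m ranged from -0.151 to 0.0065, Polg2 from -0.375 to 0.039, Tefm from -0.203 to 0.112, Lrpprc from -0.067 to 0.055, Slirp from -0.132 to 0.214 and ND6 from -0.611 to 0.72. The causes were not tested.

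Over all genes tested, samples of equal replicate number deviated together with correlations of 0.038, 0.040 and -0.012. The numbers were therefore not taken to pair samples. For the mitochondrial mRNAs other than ND6, the median log2 deviations from the genotype mean were -0.26, 0.22 and 0.06 in WT replicates 1 to 3. In KO replicates 1 to 3 they were -0.16, 0.12 and 0.07, which is the same order. The cause of this shared order of replicate numbers was not tested. With the number as a replicate block, 3190 genes were called at the study cutoffs, 4708 had an adjusted p under 0.05, the same 2 members passed, and 11 of the 13 mitochondrial mRNAs passed, among them ND3 (-0.61, adjusted p = 0.0026). Depth limits Tefm and Tfb1m most among the members, with 133 to 264 counts per sample.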
